A study of Mus musculus with 2 samples.

Results

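The transcription factors of heart development other than the Gata and T-box factors are described here by 10 genes, which are Nkx2-5, Isl1, Hand1, Hand2, Mef2a, Mef2c, Myocd, Srf, Tcf21 and Mesp1. They were chosen by name, and all 10 had a row among the 24354 genes of the deposited expression values. The values came from 2 mRNA libraries of differentiating mouse ESCs, 1 from control cells (Diff–CONT ESCs, genotype labelled WT) and 1 from inducible Ino80 knockout cells (Diff–iKO ESCs, genotype labelled Ino80 knockout). Ino80 is the ATPase of a chromatin remodeling complex. The study's methods derive both lines from blastocysts homozygous for a floxed Ino80 allele (Ino80 2f/2f), and the iKO line alone also carried ROSA26-CreER, a recombinase that works once 4-OHTM, a tamoxifen derivative, is added. The control cells therefore carried the floxed allele as well. Cells of both lines spent 2 days in serum medium and formed embryoid bodies (EBs), which were attached on day 4. From the next day on both received BMP4 medium with 0.5 µM 4-OHTM for 7 days. The number of independent lines or clones is not given in the sources used here. With 1 library per condition no difference has a replicate check, and no p-value is given.

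Heart muscle comes from mesoderm in which Mesp1 is expressed briefly as cells leave the primitive streak. Isl1 marks progenitors of the second heart field, Nkx2-5 and the Hand factors act in the early heart tube and its chambers, and Tcf21 marks the epicardium and the fibroblast precursors that come from it. The Mef2 factors and Srf bind control regions of contractile genes, and myocardin, the product of Myocd, is a muscle coactivator of Srf.

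Levels are given as FPKM, fragments per kilobase of transcript with a scaling for depth, which allows genes of different length to be set side by side. The steps in the values gave about 27540000 fragments on genes for Diff–CONT and about 21370000 for the Diff–iKO-labelled library. Each log2 ratio is that of the Diff–iKO-labelled library to Diff–CONT, with an exact (Clopper-Pearson) 95% interval from the recovered fragments, which holds counting error but no spread between cultures. Ino80 itself had 8.90 FPKM in Diff–CONT and 10.3 FPKM in the Diff–iKO-labelled library, a log2 ratio of 0.21 (0.11 to 0.31). Ino80 was thus not lower in the library labelled as its knockout, and one value per gene cannot resolve the floxed exon, so every direction here is between the libraries as labelled. Of 10 genes of undifferentiated ES cells, 9 were at least 2-fold higher in the Diff–iKO-labelled library, where 6.73% of all genes with at least 2 FPKM in 1 or both libraries were. The summed level of the 10 was 480 FPKM in Diff–CONT and 2996 FPKM in the other library, and 222 and 881 FPKM without Dppa5a, the most abundant of them. Among them the ES cell factors Pou5f1 (60.8 and 247 FPKM), Nanog (19.5 and 81.2 FPKM) and Zfp42 (3.20 and 14.4 FPKM) were present in both libraries. The part of undifferentiated cells in the values of the cardiac factors was not tested, and fewer cells of a type and less RNA per cell cannot be told apart in bulk RNA.

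Among these factors Hand1, Hand2, Isl1, Mef2c and Tcf21 passed a cut-off of at least 2-fold with at least 2 FPKM in 1 or both libraries (the study's methods give the thresholds, not in how many libraries the FPKM had to be reached), and these 5 were lower in the Diff–iKO-labelled library. Srf and Mef2a, which many tissues express, were above 2 FPKM in both libraries and did not reach a 2-fold difference. Nkx2-5, Myocd and Mesp1 stayed under 2 FPKM in both libraries. Thus 5 of the 7 that passed the filter were called lower and 0 higher, where 8.39% of 12376 genes were called lower and 6.73% higher. Isl1, Hand2, Mef2c and Tcf21 passed the filter through Diff–CONT alone, so they had to differ in this direction, and the count of 5 is a description. Among the 3 with at least 2 FPKM in both libraries 1, Hand1, was lower, where 5.10% of all such genes were. Without any filter 8 of the 10 had a ratio at least 2-fold lower, where 14.7% of 18731 genes did. The median log2 ratio, with 0.1 added to each FPKM, was -1.87 over the 7 factors with a mean of at least 1 FPKM and -0.01 over the 13145 genes of that level. It was -1.15 with 1 added to each FPKM and -0.73 over the 4 factors with a mean of at least 5 FPKM.

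**Figure D1:**
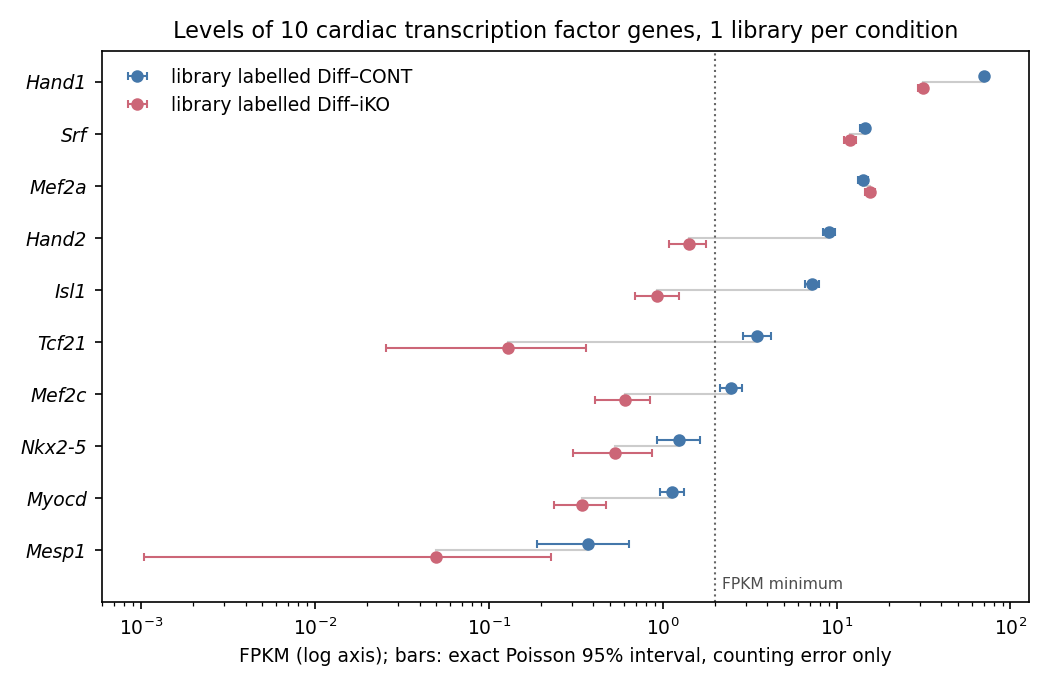
FPKM of the 10 factors (log axis) in the Diff–CONT library and the Diff–iKO-labelled library, with exact Poisson 95% intervals of the fragment counts as bars and a line at the minimum of 2 FPKM. Hand1 had the highest level in both libraries, at 70.8 and 31.3 FPKM, and Mesp1 the lowest, at 0.374 and 0.0499 FPKM.

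The 250 bases before the transcription start are shown for 4 factors, Isl1 and Hand2 as examples with a large difference, and Mef2a and Srf as the examples with a small one. They are RefSeq sequences of build GRCm38.p6, read 5′ to 3′ on the strand of the gene, with the E-box CANNTG (bound by Hand factors and other basic helix-loop-helix proteins) and the CArG box (the site bound by Srf) in capitals. The Isl1 window lies at chr13:116309689-116309938 on the minus strand, the Hand2 window at chr8:57320733-57320982 on the plus strand, the Mef2a window at chr7:67372859-67373108 on the minus strand and the Srf window at chr17:46556163-46556412 on the minus strand.
Isl1: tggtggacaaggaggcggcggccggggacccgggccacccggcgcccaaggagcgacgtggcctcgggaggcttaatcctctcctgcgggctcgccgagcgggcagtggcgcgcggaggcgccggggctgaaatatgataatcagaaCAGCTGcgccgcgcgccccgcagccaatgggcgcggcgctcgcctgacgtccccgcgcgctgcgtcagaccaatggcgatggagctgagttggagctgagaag
Hand2: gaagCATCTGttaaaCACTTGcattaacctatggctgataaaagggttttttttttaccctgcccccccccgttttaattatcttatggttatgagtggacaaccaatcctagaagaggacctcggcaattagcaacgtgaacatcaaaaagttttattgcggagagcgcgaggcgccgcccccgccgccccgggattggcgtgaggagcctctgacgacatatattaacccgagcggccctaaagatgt
Mef2a: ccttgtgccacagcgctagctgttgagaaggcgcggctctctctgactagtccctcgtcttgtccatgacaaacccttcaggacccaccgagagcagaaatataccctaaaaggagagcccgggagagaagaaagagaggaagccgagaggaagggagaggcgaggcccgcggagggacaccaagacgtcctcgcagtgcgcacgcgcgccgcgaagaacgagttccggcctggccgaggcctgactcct
Srf: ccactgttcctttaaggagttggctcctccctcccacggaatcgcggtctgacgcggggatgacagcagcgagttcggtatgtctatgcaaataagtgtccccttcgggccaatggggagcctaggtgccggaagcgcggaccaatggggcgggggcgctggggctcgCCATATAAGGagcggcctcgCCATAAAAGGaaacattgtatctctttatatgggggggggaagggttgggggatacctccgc
The Isl1 window holds 1 E-box and the Hand2 window 2, and the Mef2a window holds neither element. In the Srf window stand 2 CArG boxes, at 82 and 62 bases before the start. Of 32851 promoter windows of the same length, 66.2% hold an E-box and 1.47% a CArG box on either strand. In 10 windows of 8 of the factors (Hand1 and Myocd were not in the table, and Mef2c has 3 windows), an E-box was found for 5 factors and a CArG box for Srf and Mesp1. Of these 10 windows 6 hold an E-box, near the 66.2% of all windows. The Tcf21 window holds neither element, although Tcf21 had the lowest ratio of the factors that passed the filter. The Isl1 window has a GC content of 71.2% with 33 CpG dinucleotides and the Hand2 window 49.2% with 15, beside 61.6% with 21 for Mef2a and 59.6% with 17 for Srf. The median over all windows was 52.4% with 6. Of the other windows, that of Nkx2-5 has 8 CpG, those of Mef2c 1, 6 and 4, that of Tcf21 5 and that of Mesp1 2, so factors called lower stand on both sides of the median. A match of letters is a description and not a site shown to be bound.

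Isl1, a LIM-homeodomain factor that maintains second heart field progenitors, lies at chr13:116298281-116309689 of GRCm38, on the minus strand like the other factors except Hand2 and Mef2c. It had 7.23 FPKM in Diff–CONT and 0.934 FPKM in the Diff–iKO-labelled library, from 505 and 49 fragments. The level in Diff–CONT was 7.74 times that in the other library, a log2 ratio of -2.95 (-3.40 to -2.52), the 92nd lowest of the 12376 genes tested. Isl1 is also a factor of motor and sympathetic neurons. Of 15 genes of such neurons 6 passed the filter, and 2 of these were called lower and 1 higher, beside 8.39% and 6.73% of all genes tested, with sums of 112 and 114 FPKM over the 15. Among their defining markers, the motor neuron factor Mnx1 had 0.210 and 0.0351 FPKM, and the general neuronal gene Stmn2 had 36.1 and 56.5 FPKM.

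Nkx2-5, the NK homeobox factor used as an early sign of the cardiac lineage (chr17:26838664-26845009), was low in both libraries. It had 1.24 FPKM in Diff–CONT and 0.533 FPKM in the Diff–iKO-labelled library, from 50 and 16 fragments. The log2 ratio of -1.22 had an interval from -2.14 to -0.39, which includes differences under 2-fold. Among its relatives, Nkx2-3, a factor of gut and spleen mesenchyme and of pharyngeal tissue, was called lower with 3.49 and 0.532 FPKM. Nkx2-3 passed the filter through Diff–CONT alone, so it had to differ in this direction. Nkx2-6, a factor of pharyngeal endoderm and the early heart, had 0.550 FPKM in Diff–CONT and was listed at 0 in the other library. Nkx2-3 rather than Nkx2-5 held the largest share of the summed level of the 3 genes in Diff–CONT, 66.1%, and both had about equal shares, 50.0%, in the Diff–iKO-labelled library.

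Hand1 and Hand2 are basic helix-loop-helix factors with overlapping roles in the ventricles. Hand1 (chr11:57828705-57832818) had 70.8 FPKM in Diff–CONT and 31.3 FPKM in the Diff–iKO-labelled library, from 3641 and 1200 fragments. The log2 ratio was -1.18 (-1.27 to -1.08). Hand1 stood above 96.0% of all genes in Diff–CONT and still above 88.3% in the other library, so it was lower but not absent. Hand2 (chr8:57320983-57324633, plus strand) had 9.07 and 1.41 FPKM, from 588 and 68 fragments. Its level in Diff–CONT was 6.41 times that in the Diff–iKO-labelled library, with a log2 ratio of -2.68 (-3.07 to -2.32). The intervals of the Hand1 and Hand2 ratios did not overlap, and the Hand1 level was 7.81 times the Hand2 level in Diff–CONT and 22.1 times in the Diff–iKO-labelled library.

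Hand1 also serves trophoblast giant cells and extraembryonic mesoderm. Of 12 trophoblast genes, 7 were called higher and 2 lower in the Diff–iKO-labelled library, beside 6.73% and 8.39% of all genes tested, with sums of 468 and 727 FPKM. The keratin gene Krt8, which was not called, took most of both sums with 407 and 575 FPKM. Most of the 10 trophoblast genes that passed the filter did so through 1 library alone and had to differ, since 3 reached 2 FPKM in both. Of these 3, Tfap2c (6.68 and 24.1 FPKM) and Krt7 (39.2 and 86.4 FPKM) were called higher, where 488 of 11161 such genes were. None of the 3 was lower, beside 5.10% of such genes. The defining trophoblast markers went both ways, since the placental lactogen gene Prl3d1 had 0.484 and 6.19 FPKM, the trophoblast stem cell factor Cdx2 had 4.00 and 0.705 FPKM, and the factor Elf5 had 0.0687 and 0.299 FPKM. Some genes of the prolactin cluster have near-identical copies, so the value of Prl3d1 is uncertain. Of 13 genes of extraembryonic mesoderm and limb bud, where Hand2 is also used, 7 were called lower and 0 higher, beside the same 8.39% and 6.73%, with sums of 344 and 210 FPKM. With 2 FPKM in both libraries 4 of 7 were lower, beside 5.10% of all such genes. Lower among these were Pitx1, a hindlimb factor, with 7.66 and 0.769 FPKM, and Msx1, a homeobox factor downstream of BMP, with 17.3 and 3.01 FPKM. The part of these tissues in the Hand values was not tested.

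Mesp1, the basic helix-loop-helix factor of the earliest cardiac mesoderm (chr7:79792241-79793788), was near the limit of detection. It had 0.374 FPKM in Diff–CONT and 0.0499 FPKM in the Diff–iKO-labelled library, from 12 fragments and 1. The log2 ratio of -2.90 therefore had an interval from -8.59 to -0.41. Its neighbor Mesp2, a paralog that works in somite formation and lies 16.9 kb away, went the other way with 0.133 and 0.484 FPKM from 7 and 19 fragments, a log2 ratio of 1.86 (0.55 to 3.36). The sum of both was 0.507 and 0.534 FPKM, and the share of Mesp1 in it was 73.7% in Diff–CONT and 9.35% in the Diff–iKO-labelled library.

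**Figure D2:**
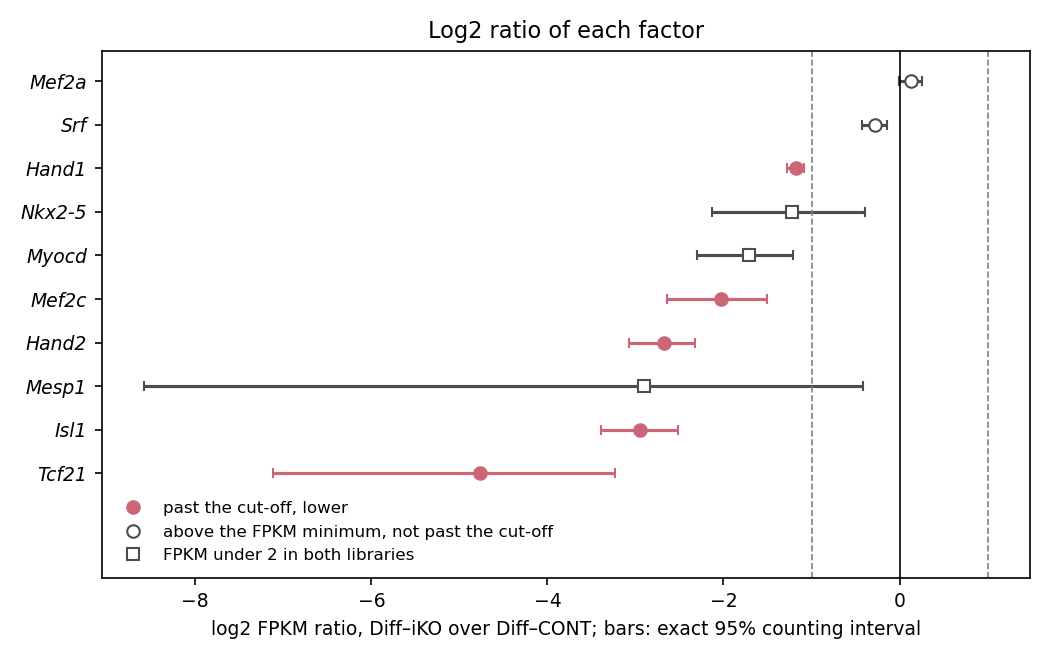
Log2 ratio of the Diff–iKO-labelled library to Diff–CONT for the 10 factors, with exact 95% intervals from fragment counts as bars and lines at 0 and at a 2-fold difference. Mef2a, at 0.13, is the one factor with a ratio above 0, and the intervals of Tcf21 and Mesp1 are wide because 3 fragments and 1 were recovered in the Diff–iKO-labelled library.

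Mef2c, the Mef2 factor needed for looping of the heart tube and formation of the right ventricle (chr13:83504034-83667080, plus strand), was low in Diff–CONT and lower in the Diff–iKO-labelled library. It had 2.47 and 0.605 FPKM, from 178 and 32 fragments, with a log2 ratio of -2.03 (-2.64 to -1.50). Mef2a, a broadly expressed factor of the same family (chr7:67231163-67372858), had 14.2 FPKM in Diff–CONT and 15.5 FPKM in the other library, from 1053 and 858 fragments. Its log2 ratio was 0.13 (-0.0025 to 0.26), an interval that holds 0 and no 2-fold difference. Lysmd4 overlaps Mef2a on the opposite strand with 5.14 and 4.14 FPKM, and the strand setting of the counting is not given in the sources used here. The 2 Mef2 genes thus differed from each other, and the Mef2a level was 5.74 times the Mef2c level in Diff–CONT and 25.6 times in the Diff–iKO-labelled library.

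The Mef2 family as a whole had nearly equal sums, 39.3 and 40.6 FPKM. Mef2d, the most abundant of the 4 genes, supplied 53.4% of the sum in Diff–CONT and 57.2% in the Diff–iKO-labelled library, and Mef2a supplied 36.1% and 38.2%. The share of Mef2c was 6.29% in Diff–CONT and 1.49% in the other library. Mef2c is also a factor of endothelium, and of 12 endothelial genes 10 had a lower level in the Diff–iKO-labelled library, with 7 called lower and 1 called higher, beside 8.39% and 6.73% of all genes tested. Several of the 7 passed the filter through Diff–CONT alone, and with 2 FPKM in both libraries 2 of 6 were lower, beside 5.10% of all such genes. The defining marker Cdh5, a junction gene, had 10.3 and 4.34 FPKM. The gene called higher was Pecam1, an adhesion gene of endothelium and also of ES cells, with 16.2 and 53.9 FPKM. The sums were 94.6 and 107 FPKM with Pecam1 and 78.3 and 53.0 FPKM without it. The part of endothelium in the Mef2c values was not tested. Of the defining factors of skeletal muscle, a further site of Mef2c, Myf5 was listed at 0 in both libraries, Myod1 had 0.0599 FPKM in Diff–CONT and was listed at 0 in the other library, and Myog had 0.283 and 0.344 FPKM. Of the 2 skeletal muscle genes that passed the filter, the alpha-actin gene Acta1 was called higher with 12.6 and 64.9 FPKM, a value that is uncertain because the muscle actins are nearly identical, and Pax3 had 4.09 and 3.46 FPKM.

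Srf, the serum response factor (chr17:46548329-46556175), had 14.6 FPKM in Diff–CONT and 12 FPKM in the Diff–iKO-labelled library, from 1059 and 648 fragments. The log2 ratio of -0.28 (-0.43 to -0.14) had an interval below 0 and did not reach a 2-fold difference. Myocd (chr11:65176561-65269989) had 1.13 and 0.344 FPKM, from 161 and 36 fragments. Its log2 ratio was -1.71 (-2.30 to -1.20), so the whole interval lay past 2-fold although the level stayed under the minimum of 2 FPKM. The Srf level was 12.9 times the Myocd level in Diff–CONT and 34.8 times in the Diff–iKO-labelled library. The broadly expressed coactivators of the same family, Mkl1 (12.4 and 13.8 FPKM) and Mkl2 (8.15 and 8.71 FPKM), supplied most of the summed coactivator level of 21.7 and 22.9 FPKM. Myocd made up 5.20% of that sum in Diff–CONT and 1.5% in the Diff–iKO-labelled library.

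Tcf21, a basic helix-loop-helix factor of the epicardium and of mesenchyme in lung and kidney (chr10:22817281-22820174), had the lowest ratio of the 7 factors that passed the filter. It had 3.49 FPKM in Diff–CONT and 0.128 FPKM in the Diff–iKO-labelled library, from 113 fragments and 3. The ratio was 27.2-fold, with a log2 value of -4.77 and an interval from -7.12 to -3.23, the 34th lowest of 12376 genes. Msc, musculin, the closest relative of Tcf21, was called higher with 0.392 and 5.04 FPKM, a log2 ratio of 3.68 (3.0 to 4.49). Tcf21 thus held 89.9% of the summed level of the pair in Diff–CONT and 2.48% in the Diff–iKO-labelled library, while the sum itself was 3.88 and 5.16 FPKM. Tcf15, paraxis, a somite factor of the same broad family, was also called higher with 1.39 and 13.2 FPKM. Msc and Tcf15 passed the filter through the Diff–iKO-labelled library alone, so they had to differ in this direction. Of 12 family relatives of the factors 6 passed the filter, with 1 called lower and 2 higher, beside 8.39% and 6.73% of all genes tested. With 2 FPKM in both libraries 0 of 3 were lower, beside 5.10% of all such genes.

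The epicardial and mesothelial list of 14 genes, which includes Tcf21, had 6 called lower and 1 higher, beside 8.39% and 6.73% of all genes tested, with sums of 399 and 187 FPKM. Tcf21 and others passed the filter through Diff–CONT alone, and with 2 FPKM in both libraries 2 of 6 were lower, beside 5.10% of all such genes. Of its defining markers, the uroplakin gene Upk3b had 2.30 and 0.169 FPKM and was called lower, whereas the epicardial factors Wt1, with 2.23 and 1.66 FPKM, and Tbx18, with 0.697 and 0.715 FPKM, differed less. Podxl, which encodes a surface sialomucin of mesothelium, podocytes and pluripotent cells, had 228 and 36.7 FPKM and took most of the sum in Diff–CONT. Msln, mesothelin, was the gene called higher, with 2.75 and 5.52 FPKM. The part of epicardial or mesothelial cells in the Tcf21 values was not tested.

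**Figure D3:**
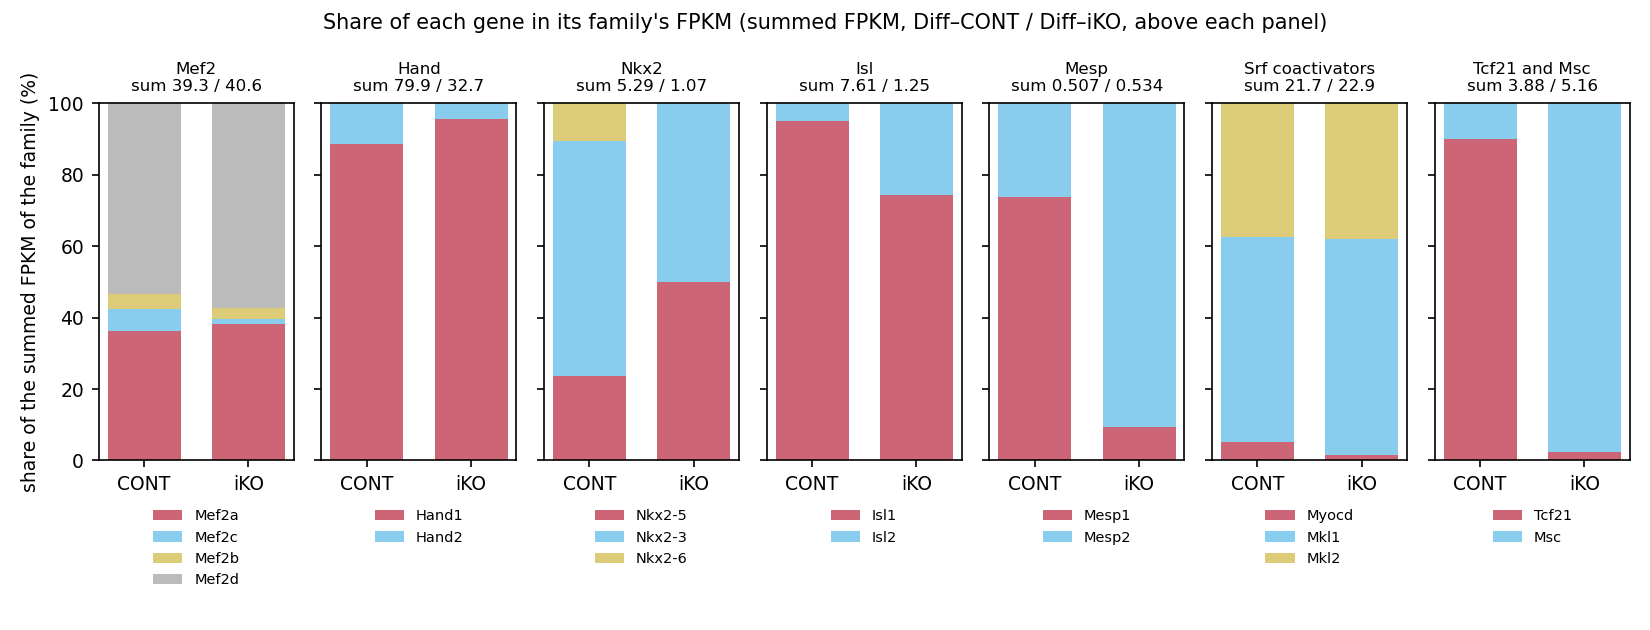
Share of each gene in the summed FPKM of its family (percent) in the 2 libraries, with the sums above each panel. The Mef2 sum (39.3 and 40.6 FPKM) and the coactivator sum (21.7 and 22.9 FPKM) were nearly equal, while Mef2c and Myocd took a smaller share in the Diff–iKO-labelled library, and Msc took the place of Tcf21 as the larger of that pair.

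Ordered by level in Diff–CONT, the factors ran Hand1, Srf, Mef2a, Hand2, Isl1, Tcf21, Mef2c, Nkx2-5, Myocd and Mesp1. Of neighbors in this order, only the counting intervals of Srf and Mef2a and those of Nkx2-5 and Myocd overlapped. In the Diff–iKO-labelled library the order was Hand1, Mef2a, Srf, Hand2, Isl1, Mef2c, Nkx2-5, Myocd, Tcf21 and Mesp1, and from Hand2 down each interval overlapped the next. Mef2a therefore stood above Srf, and Tcf21 was in place 6 in Diff–CONT and in place 9 in the other library. The 10 levels summed to 125 FPKM in Diff–CONT and 62.7 FPKM in the Diff–iKO-labelled library, of which Hand1 was the largest part in both.

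The genes flanking the 10 factors on the chromosome were examined after the values of the factors had been seen. Of 20 flanking genes with a row, 13 reached 2 FPKM, and 0 of them were called lower or higher, beside 8.39% and 6.73% of all genes tested, so 0 of 13 is near the background. Their log2 ratios, with 0.1 added to each FPKM, lay between -0.35 and 0.40. Sap30l, 18.5 kb from Hand1, had 12.1 FPKM in both libraries. Eya4, 283 kb from Tcf21, had 2.34 and 2.36 FPKM, and Parp8, 545 kb from Isl1, had 7.29 and 5.70 FPKM. The noncoding gene 5033428I22Rik, 7.49 kb from Hand2, was under 2 FPKM with 0.435 and 0.116 FPKM.

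A mixed list of dimer partners, inhibitors, cofactors and other regulators was set beside these factors. Of its 25 genes 23 passed the filter, with 1 called lower and 0 higher, beside 8.39% and 6.73% of all genes tested. The median log2 ratio of the list was -0.46. Of the 23 genes, 22 reached 2 FPKM in both libraries, with 0 called lower. The gene called lower was Lhx2, a LIM-homeodomain factor like Isl1, with 4.58 and 0.575 FPKM. Tcf12, a dimer partner of Hand and Tcf21 proteins, had 48.1 and 24.4 FPKM, close to but short of 2-fold. The Id proteins hold such dimers inactive and are induced by BMP, and Id3 had 237 and 160 FPKM and Id1 117 and 65.3 FPKM. Ldb1, a cofactor that LIM-homeodomain factors bind, had 107 and 130 FPKM. At the other end, Jarid2, a component of Polycomb repressive complexes, had 29.8 and 57.6 FPKM, and Ppp1r13l had 9.42 and 13.3 FPKM.

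The Gata and T-box heart factors, which share targets with the 10 genes, were lower for 6 of the 7 that passed the filter, beside 8.39% of all genes tested, and 0 were higher. Eomes and T passed through Diff–CONT alone and had to differ, and with 2 FPKM in both libraries 4 of 5 were lower, beside 5.10% of all such genes. The 6 were Gata4 (20.1 and 2.56 FPKM), Gata6 (8.85 and 2.36 FPKM), Tbx2 (8.55 and 3.91 FPKM), Tbx20 (10.3 and 4.98 FPKM), Eomes (5.25 and 1.48 FPKM) and T (7.83 and 1.20 FPKM). Tbx3, also a factor of ES cells, had 11.5 and 10.1 FPKM. Their median log2 ratio was -1.76 over 7 genes with a mean of at least 1 FPKM, beside -1.87 over the 7 cardiac factors of that level. With a mean of at least 5 FPKM the medians were -1.11 over 5 Gata and T-box genes and -0.73 over 4 cardiac factors.

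Other regulators of heart development had 17 of 32 genes called lower and 1 higher, beside 8.39% and 6.73% of all genes tested, with a median log2 ratio of -0.97. As for the cardiac factors, a gene that passed the filter through Diff–CONT alone had to differ, and with 2 FPKM in both libraries 9 of 21 were lower, beside 5.10% of all such genes. The lowest ratios were those of Prdm6, a smooth muscle regulator (8.81 and 0.554 FPKM), and Sox17, a factor of endoderm and endothelium (5.36 and 0.317 FPKM). Irx4, a factor of the ventricle, had 2.28 and 4.28 FPKM. Among the abundant members, Nfatc4 had 30.6 and 16.0 FPKM, Sall4 27.5 and 28.6 FPKM and Foxh1, a partner of Smad proteins downstream of Nodal, 24.6 and 18.8 FPKM.

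Signals and surface genes of the heart fields and cardiac precursors had 13 of 24 called lower and 3 higher, beside 8.39% and 6.73% of all genes tested, with a median log2 ratio of -1.11. With 2 FPKM in both libraries 7 of 18 were lower, beside 5.10%. Lowest were Cfc1, the Nodal coreceptor Cryptic (10.5 and 0.209 FPKM), and Fgf8, a growth factor of the second heart field and primitive streak (18.3 and 0.807 FPKM). The 3 called higher, Tdgf1 (49.8 and 259 FPKM), Lefty2 (18.6 and 108 FPKM) and Nodal (22.9 and 78.2 FPKM), belong to the Nodal pathway and are expressed in ES cells too. All 3 are among the 18 with 2 FPKM in both libraries, where 488 of 11161 genes were called higher. The sum of the list was 387 FPKM in Diff–CONT and 577 FPKM in the Diff–iKO-labelled library. Tdgf1 is also on the list of undifferentiated ES cells given above.

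**Figure D4:**
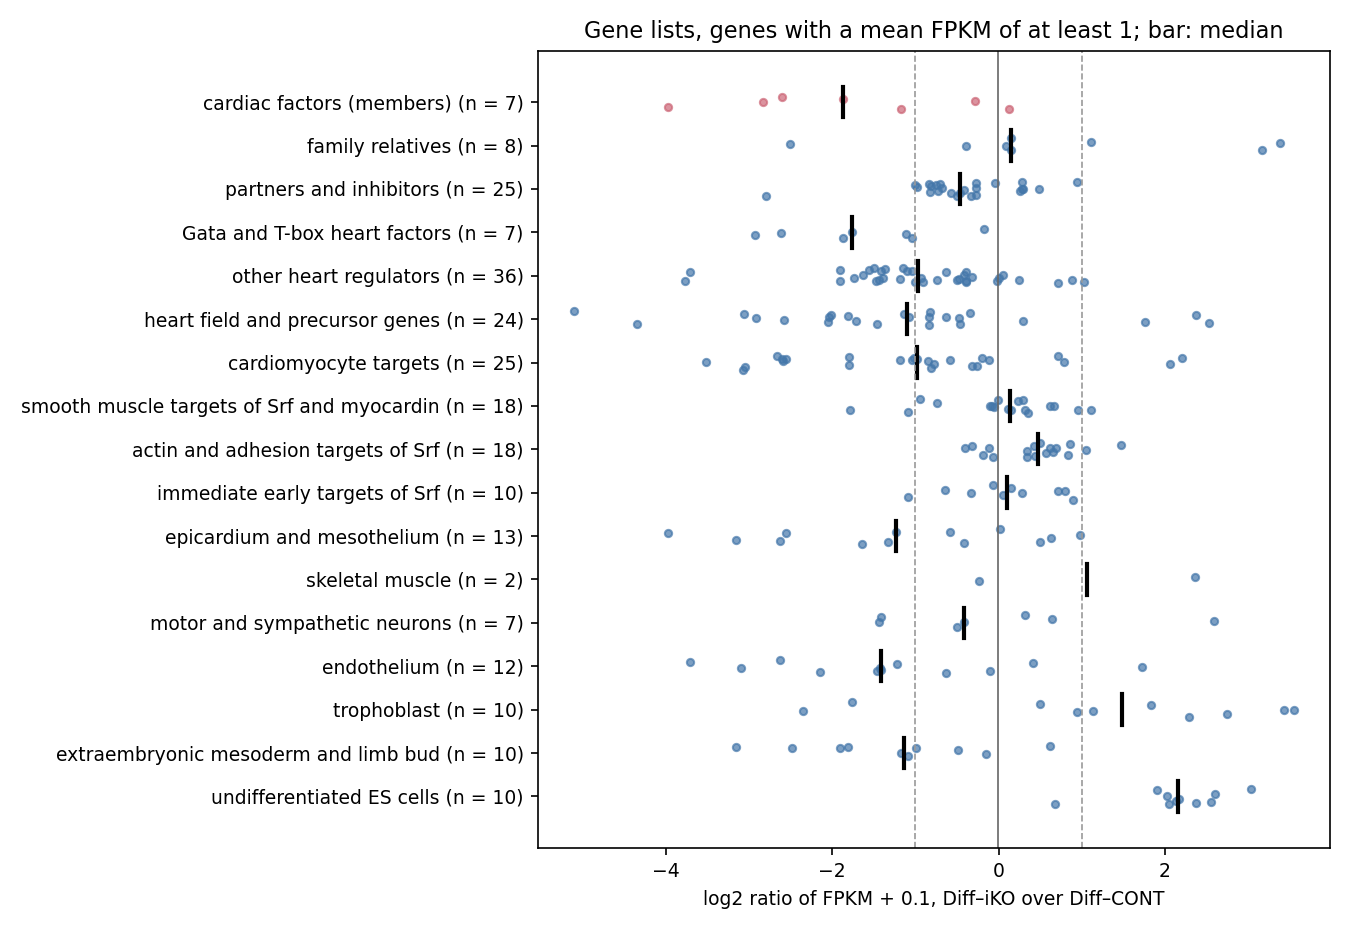
Log2 ratios, with 0.1 added to each FPKM, of the genes of each list with a mean of at least 1 FPKM, as points, with the median of the list as a bar. The cardiac factors (median -1.87) and the Gata and T-box factors (median -1.76) lie to the left of 0, and the ES cell genes (median 2.16) to the right.

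Genes of the cardiomyocyte, many of them known targets of Mef2, Srf, Gata and Nkx2-5 factors, had 11 of 21 called lower and 2 higher, beside 8.39% and 6.73% of all genes tested, with a median log2 ratio of -0.98 over 25 genes. With 2 FPKM in both libraries 3 of 9 were lower, beside 5.10%. Of the defining markers, troponin T gene Tnnt2 had 14.7 and 4.17 FPKM and the atrial light chain gene Myl7 had 9.16 and 1.43 FPKM, and both were called lower. The myosin gene Myh6 had 1.85 and 0.207 FPKM, and the atrial peptide gene Nppa had 0.259 and 0.898 FPKM, so both were under 2 FPKM in both libraries. Myh6 shares much of its sequence with Myh7, so its value is uncertain. The lowest ratios were those of the membrane protein gene Popdc2 (4.17 and 0.273 FPKM) and the light chain gene Myl3 (5.48 and 0.562 FPKM). Called higher were Nppb, the B-type natriuretic peptide gene (1.85 and 8.88 FPKM), and Cox7a1, a muscle form of a cytochrome oxidase subunit (9.93 and 41.8 FPKM). The sum of the list, 414 and 374 FPKM, was set mainly by broadly expressed members, the calcium pump gene Atp2a2 (121 and 199 FPKM) and the gap junction gene Gja1 (136 and 68.8 FPKM).

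Known targets of Srf outside heart muscle fell under 3 lists. Smooth muscle targets of Srf and myocardin had 2 of 18 called lower and 1 higher, near the 8.39% and 6.73% of all genes tested, with a median log2 ratio of 0.13. Called lower were Pgm5 (4.90 and 1.35 FPKM), which encodes a protein of cell adhesions, and Mylk, the myosin light chain kinase gene (3.70 and 1.69 FPKM), and calponin gene Cnn1 was called higher (8.71 and 19.0 FPKM). Pgm5 and Mylk passed the filter through Diff–CONT alone. With 2 FPKM in both libraries 0 of 16 smooth muscle targets were lower, beside 5.10% of all such genes. The most abundant were Tpm1 (689 and 686 FPKM), Tagln (230 and 445 FPKM) and Acta2 (263 and 337 FPKM), of which Acta2 is uncertain because the muscle actins are nearly identical. Cytoskeletal and adhesion targets had 0 of 18 called lower and 2 higher, the matricellular gene Ctgf (139 and 385 FPKM) and the integrin gene Itgb1 (345 and 717 FPKM), beside the same shares of all genes, with a median of 0.47. Immediate early targets had 1 of 8 called lower, the zinc finger factor Egr1 (32.3 and 15.2 FPKM), and 0 higher, with a median of 0.10, and counts this small cannot be set apart from 8.39% and 6.73%.

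**Figure D5:**
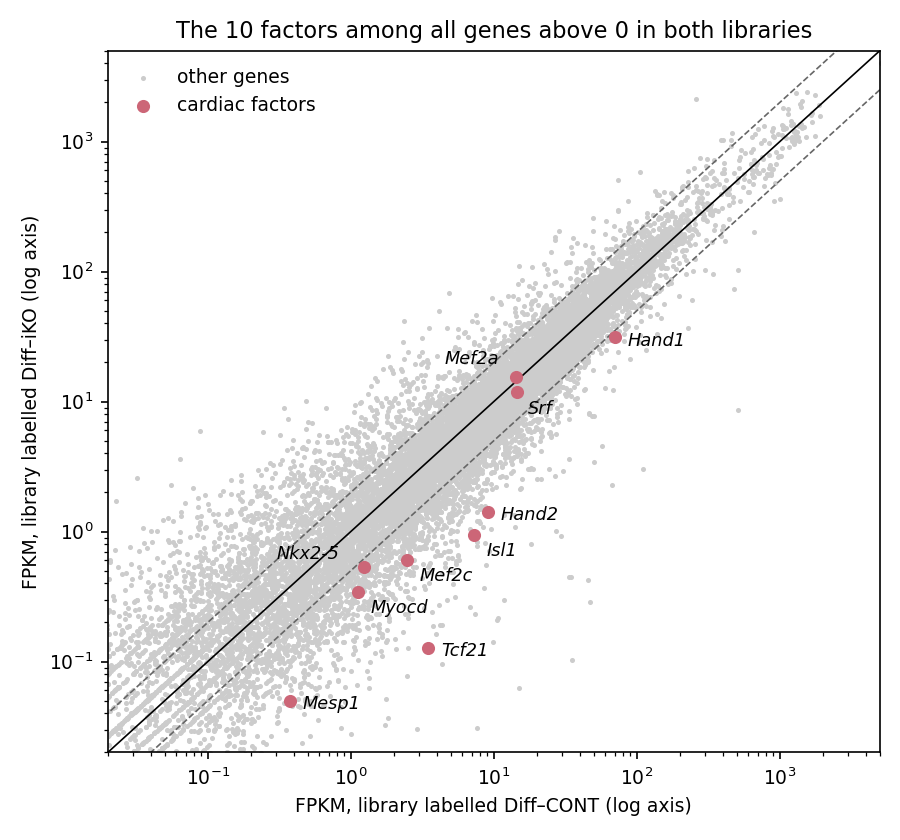
FPKM of each gene in the Diff–iKO-labelled library against its FPKM in Diff–CONT (both log axes), for genes above 0 in both libraries, with the 10 factors in red, a solid line at equal levels and dashed lines at a 2-fold difference. The 5 factors called lower and Nkx2-5, Myocd and Mesp1 lie below the lower dashed line, while Mef2a and Srf lie between the dashed lines.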

How the data were processed

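RNA of 2 libraries, 1 per condition, was measured, and the authors deposited FPKM values per gene. The submitters' processing notes and the study's methods name STAR 2.7.9a, the mm10 genome, and Cuffquant and Cuffnorm of Cufflinks 2.2.1. The gene annotation and the strand setting of the counting are not given in the sources used here, although the libraries were made with a stranded kit. Columns were matched to libraries by name, and 0 other columns of values were present.

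From the FPKM values, the log2 ratio of the Diff–iKO-labelled library to Diff–CONT was taken without a pseudocount, and with a pseudocount of 0.1 for medians of lists over genes whose mean FPKM reached 1, which understates the ratios of low genes. The cut-off was a fold change of 2 with 2 FPKM in at least 1 library. A test of the conditions was not possible with 1 library each.

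Depth was recovered from the FPKM steps of 10487 genes with 1 transcript of at least 1000 bases in GENCODE vM21 (GRCm38). Of low values, 87.1% (Diff–CONT) and 87.6% (Diff–iKO) were whole within 0.2 of a fragment. The step was chosen to bring these same values closest to whole fragments, so the share describes the fit and is not a separate check. Fragments of genes with several transcripts are approximate. Intervals (95%, exact Clopper-Pearson for ratios and exact Poisson for levels) cover counting error only.

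The 10 factors and the 16 lists beside them were chosen with earlier results of these data known. The genes named are the 10 factors, Ino80, the defining markers, the Gata and T-box genes past the cut-off, and of each list the 3 with the highest mean FPKM and the 2 with the lowest and 2 with the highest ratio. The family shares with Nkx2-6, Isl2, Mesp2 and Mef2b, and the flanking genes, were chosen after their values were seen. Lists share genes such as Tcf21, Wt1, Sox17, Kdr and Tdgf1. Mkl1, Mkl2 and Ctgf are named as deposited. Other filters, pseudocounts, fold changes and scalings were tried, and the steps were tested on simulated data with scipy 1.17.1, numpy 2.4.6 and pandas 2.3.3 under Python 3.11.15, and drawn with matplotlib 3.10.9. Some genes that this rule would name are not reported here. Proteins of the factors were not analysed here.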

Additional observations from a re-analysis of the deposited data

How the results depend on the processing

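The count of cardiac factors called lower was 5, and it was 1 with 2 FPKM required in both libraries and 8 with no filter, and under the other settings it lay between 4 and 7. Among all genes the 1038 called lower became 569 with 2 FPKM in both libraries, 2761 with no filter, 2177 at a fold change of 1.5 and 237 at a fold change of 4. The 833 called higher became 488, 2794, 1846 and 278 under the same settings. They became 1002 and 807 with a pseudocount of 0.1, 712 and 646 with a pseudocount of 1, and 1226 and 702 with each library scaled to the same sum. The median log2 ratio of the factors, -1.87, became -1.15 with a pseudocount of 1 and -0.73 over the 4 factors with a mean FPKM of at least 5, settings that shrink low genes or leave them out. Of 60 alternative values of the factors' ratios 6 moved by more than the counting interval, all with a pseudocount of 1, and 0 changed sign. Of 80 alternative medians of lists 8 moved, and the one of neuronal genes changed sign, from -0.42 to 0.11, at a mean FPKM of at least 5. At that minimum the median of the Gata and T-box factors went from -1.76 to -1.11, that of endothelium from -1.42 to -0.40 and that of skeletal muscle from 1.06 to 2.36. Scaling to the same sum shifted the log2 ratios by -0.09. No paired analysis was possible because each condition had 1 library, and for the same reason no replicate could be left out. Depth limits Tcf21, Mesp1 and Nkx2-5, which rest on 3, 1 and 16 fragments in the Diff–iKO-labelled library.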
